A study of Arabidopsis thaliana with 3 samples.

Results

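The ARGONAUTE genes AGO1 to AGO10 of Arabidopsis thaliana were examined for AIPP3 peaks. The members were the 10 genes by locus identifier, out of 27444 protein-coding genes annotated on chromosomes 1 to 5. AIPP3 carries a BAH domain, a module that can bind histone tails, and the study examined its recognition of H3K27me3, the histone mark of Polycomb repression. Chromatin immunoprecipitation with sequencing (ChIP-seq) used a Myc antibody on 13-day-old seedlings grown in long days. There were 2 AIPP3-4Myc libraries and 1 Col-0 library. The AIPP3-4Myc plants carried genomic AIPP3 under its native promoter, fused to a 4Myc tag, in the corresponding aipp3-1 mutant. Col-0, the wild-type ecotype shared as background by all plants, carried no tag and gave the background of the antibody. The plants compared thus need not differ by the tag alone, and neither the relation between the lines behind the 2 AIPP3-4Myc libraries nor separate cultures were given in the sources used here.

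ARGONAUTE proteins bind small RNAs and use them to find matching transcripts or nascent RNA. In plants, AGO1 is the main partner of microRNAs and slices or represses their targets, and its closest relative AGO10 binds miR166 and miR165 in the shoot meristem. AGO7 binds miR390 to start trans-acting siRNA synthesis, and AGO2 acts in antiviral defence. AGO4, AGO6 and AGO9 guide RNA-directed DNA methylation, AGO9 in ovules, and AGO5 is known from germline tissues. AGO3 lies beside AGO2 and resembles it, and AGO8 resembles AGO9 and is often regarded as a pseudogene. By translated coding sequence, AGO2 and AGO3 were 72.6% identical, AGO8 and AGO9 70.8%, and AGO1 and AGO10 69.5%. AGO5 was closest to AGO1, at 58.2% identity, and reached 53.8% with AGO10, 35.1% with AGO2 and with AGO3, and 38.9% with AGO8 and with AGO9.

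The nuclear peak lists held 926 peaks in AIPP3-4Myc replicate 1, 430 in replicate 2 and 16 in Col-0. The score of a peak is the MACS p-value as its negative log10 multiplied by 10, so that a score of 50 stands for 1e-05. The lowest nuclear scores were just above 50 in both AIPP3-4Myc lists and 82.8 in Col-0, and read depth is unknown. A gene had a peak when at least 1 bp of a peak lay in its target region, which began 1 kb before the transcription start site (TSS) and ended at the transcription termination site (TTS). By that measure 1403 of the 27444 protein-coding genes had a peak in AIPP3-4Myc replicate 1 (5.11%), 626 in replicate 2 (2.28%), 459 in both (1.67%) and 15 in Col-0 (0.0547%).

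Among the ARGONAUTE genes, AGO5 had a peak in AIPP3-4Myc replicate 1 and in replicate 2 and none in Col-0. The other 9 genes had no peak in any library. The count was therefore 1 of 10 in each AIPP3-4Myc replicate, the same gene in both, and 0 of 10 in Col-0. The target regions of the ARGONAUTE genes were long, with a median of 6609 bp against 3078 bp for protein-coding genes. Of the 3039 protein-coding genes with target regions in the range of the ARGONAUTE genes, 3.62% had a peak in replicate 1, 1.35% in replicate 2, 1.05% in both and 0.0987% in Col-0. With 10 genes, 1 gene is the smallest count above 0, and nothing about the family as a whole is read from it. The study displayed AGO5 as a representative AIPP3 target in its ChIP-seq, so the AGO5 peak here is not independent evidence. The paper also named AGO5 among genes upregulated in aipp3-1 and related mutants. It reported AIPP3 enrichment at selected target genes by ChIP with quantitative PCR, on samples independent of the ChIP-seq. With 2 libraries against 1, relabelling them cannot give a p-value under 0.333, so no test between AIPP3-4Myc and Col-0 was made.

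**Figure D1:**
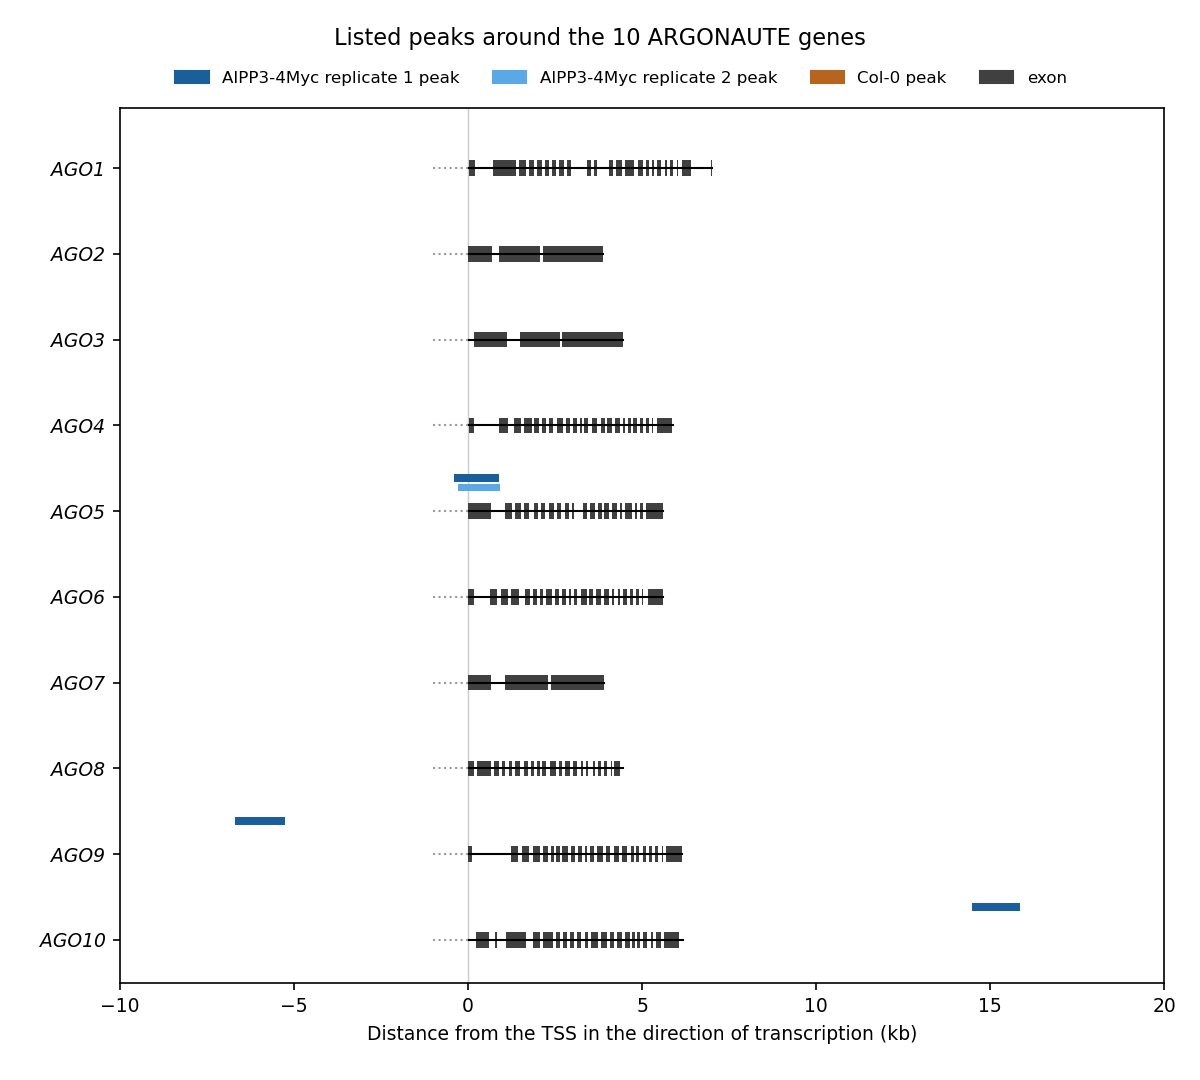
Gene models of the 10 ARGONAUTE genes aligned at the TSS, with distance from the TSS in kb along the x axis. Boxes are exons, and coloured bars are deposited peaks of AIPP3-4Myc replicate 1, AIPP3-4Myc replicate 2 and Col-0 in the region drawn. Bars from both AIPP3-4Myc replicates lie over the start of AGO5, and a replicate 1 bar stands upstream of AGO9 and another downstream of AGO10.

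AGO5 (AT2G27880) lies at chr2:11871378-11876989 on the plus strand, with 20 exons and 997 codons in the transcript with the longest coding sequence. The AIPP3-4Myc replicate 1 peak spanned chr2:11870972-11872274, a width of 1303 bp, with a score of 109. The AIPP3-4Myc replicate 2 peak spanned chr2:11871087-11872303, a width of 1217 bp, with a score of 103. The left edges of the peaks differed by 115 bp and the right edges by 29 bp. The shared stretch of 1188 bp, chr2:11871087-11872274, made up 91.2% of the replicate 1 peak and 97.6% of the replicate 2 peak. Peak midpoints lay 245 bp downstream of the TSS in replicate 1 and 317 bp downstream in replicate 2, a mean of 281 ± 50.9 bp (SD, n = 2). In Col-0 the nearest peak was 4.86 Mb from the AGO5 target region.

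Both peaks crossed the TSS and ended within intron 1. The replicate 1 peak covered 406 bp upstream of the TSS, the 110 bp of exon 1 before the start codon, all 540 coding bases of exon 1 and 247 bp of the 418 bp intron 1. The replicate 2 peak covered 291 bp upstream, the same 110 bp and 540 bp of exon 1, and 276 bp of intron 1. Exon 2 and all later exons lay outside the peaks in both replicates. Of the shared stretch, 45.5% was coding sequence of exon 1, 24.5% was upstream of the TSS and 20.8% was intron 1.

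**Figure D2:**
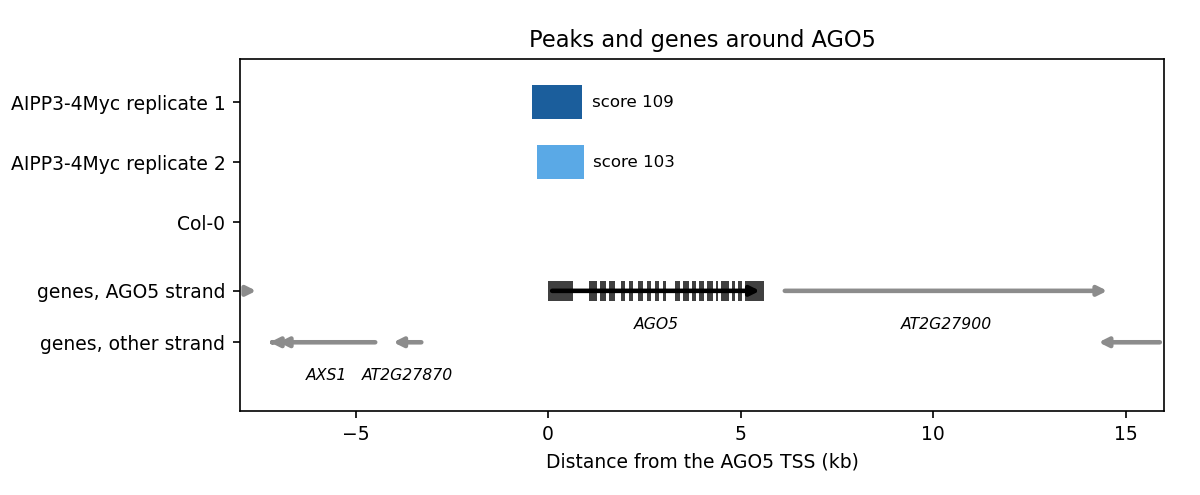
Peaks and annotated genes around AGO5, with distance from the AGO5 TSS in kb. Bars are peaks of AIPP3-4Myc replicate 1, AIPP3-4Myc replicate 2 and Col-0 with their scores, arrows are genes by strand and boxes are AGO5 exons. The 2 AIPP3-4Myc peaks, with scores of 109 and 103, are the sole peaks in view.

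Promoters of AGO5, AGO2, AGO3 and AGO8 are printed because AGO5 had a peak over its start and the others, members of the gene pairs, had none in any library. Each runs 5′ to 3′ in the direction of the gene, with 250 bases before the TSS and 50 after it, read from the RefSeq assembly TAIR10.1. Capitals mark GAGAGA or its reverse complement TCTCTC, a motif bound by GAGA factors, which recruit Polycomb proteins in plants. The windows are chr2:11871128-11871427 (plus strand) for AGO5, chr1:11181254-11181553 (plus) for AGO2, chr1:11187870-11188169 (plus) for AGO3 and chr5:7144223-7144522 (minus) for AGO8.
AGO5: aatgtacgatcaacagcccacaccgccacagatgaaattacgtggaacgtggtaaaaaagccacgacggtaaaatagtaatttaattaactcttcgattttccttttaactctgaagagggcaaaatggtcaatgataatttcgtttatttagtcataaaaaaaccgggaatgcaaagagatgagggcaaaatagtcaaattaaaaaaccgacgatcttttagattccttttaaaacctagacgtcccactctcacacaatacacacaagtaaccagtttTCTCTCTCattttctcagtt
AGO2: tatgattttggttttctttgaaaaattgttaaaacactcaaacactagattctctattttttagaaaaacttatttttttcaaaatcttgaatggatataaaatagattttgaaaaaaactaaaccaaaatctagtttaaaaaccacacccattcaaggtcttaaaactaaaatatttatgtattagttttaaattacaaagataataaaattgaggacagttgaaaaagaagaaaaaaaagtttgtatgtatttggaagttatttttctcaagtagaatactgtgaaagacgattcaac
AGO3: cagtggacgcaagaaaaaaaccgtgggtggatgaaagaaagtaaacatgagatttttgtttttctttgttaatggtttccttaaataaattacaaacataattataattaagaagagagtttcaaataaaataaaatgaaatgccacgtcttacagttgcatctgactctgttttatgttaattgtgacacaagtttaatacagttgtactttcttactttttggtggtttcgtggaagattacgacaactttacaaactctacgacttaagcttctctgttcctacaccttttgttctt
AGO8: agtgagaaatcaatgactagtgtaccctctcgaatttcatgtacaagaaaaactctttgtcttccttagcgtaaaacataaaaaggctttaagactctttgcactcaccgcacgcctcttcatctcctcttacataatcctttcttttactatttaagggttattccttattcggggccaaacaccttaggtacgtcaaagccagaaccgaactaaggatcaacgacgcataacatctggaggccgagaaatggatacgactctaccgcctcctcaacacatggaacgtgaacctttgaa

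AGO5 held 2 overlapping occurrences of the motif in this window, while AGO2, AGO3 and AGO8 held 0. AGO10 held 5, and AGO1, AGO4, AGO6 and AGO7 held 0. At least 1 occurrence was found in 29.2% of all promoters of this length. The telobox (AAACCCTA or its reverse complement TAGGGTTT) was in none of these promoters and in 6.22% of all. GC content was 36.3% in the AGO5 promoter, 23.0% in AGO2, 31.7% in AGO3 and 42.3% in AGO8, against a median of 32.0% over all promoters.

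The 300 bases at the centre of the shared AGO5 stretch, chr2:11871531-11871830 on the plus strand of TAIR10.1, are printed because both peaks were centred there. They run 153 to 452 bp downstream of the TSS, within the coding part of exon 1, and neither motif occurs in them, so no base is in capitals.
AGO5 peak centre: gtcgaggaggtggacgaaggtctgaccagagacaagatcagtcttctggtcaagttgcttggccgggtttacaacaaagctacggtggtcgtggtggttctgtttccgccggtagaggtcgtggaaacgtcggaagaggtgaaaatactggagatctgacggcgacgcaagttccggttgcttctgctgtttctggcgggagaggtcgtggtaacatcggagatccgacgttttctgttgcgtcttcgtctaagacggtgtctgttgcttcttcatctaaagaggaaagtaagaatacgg

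The GC content of this centre was 52.0%. Over the whole shared stretch, 291 bp upstream to 896 bp downstream of the TSS, AGO5 had 41.8% GC. In the same window 91.2% of protein-coding genes had less, with a median of 37.1%, but AGO3 had 52.0% and no peak. The GAGA motif occurred 5 times under the AGO5 peaks, counting overlaps, at 30, 32, 52, 54 and 56 bp downstream of the TSS, all between the TSS and the start codon. Of all genes, 81.2% held the motif in this window and 18.8% held it at least 5 times. Family members without a peak had both more and fewer occurrences, with 13 in AGO10, 10 in AGO7 and 7 in AGO1, but 3 in AGO2, 1 in AGO3 and 0 in AGO8. The telobox did not occur under the AGO5 peaks, but occurred in the same window of AGO4 and AGO1 and in 25.8% of all genes. These matches describe the letters and do not show a bound site.

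The AGO5 peaks were then placed among all peaks of their own lists. The AGO5 peak ranked 189 of 926 by score in replicate 1 and 114 of 430 in replicate 2. It scored above 79.6% of the peaks of replicate 1 and 73.5% of those of replicate 2. The AGO5 peaks were narrow for their lists, whose median widths were 1724 bp in replicate 1 and 1592 bp in replicate 2, and 19.5% and 21.4% of the peaks were narrower.

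AGO5 is a long gene with a peak at its start only. It measured 5612 bp, against a median of 1915 bp for the 459 protein-coding genes with a peak in both AIPP3-4Myc replicates, of which 9 were longer. The peak covered 16.0% of the AGO5 gene body in replicate 1 and 16.5% in replicate 2, against medians of 85.7% and 72.6% over the 459 genes. A smaller share of the gene body lay under the peak for 23.7% of these genes in replicate 1 and for 27.5% in replicate 2. The mean midpoint lay within 500 bp downstream of the TSS for 39 of the 459 genes (8.5%), AGO5 among them, and the median midpoint was 783 bp downstream. AGO5 was the sole gene whose target region its peak touched in both replicates. This held for 131 of the 459 genes in replicate 1 (28.5%) and for 144 in replicate 2 (31.4%).

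**Figure D3:**
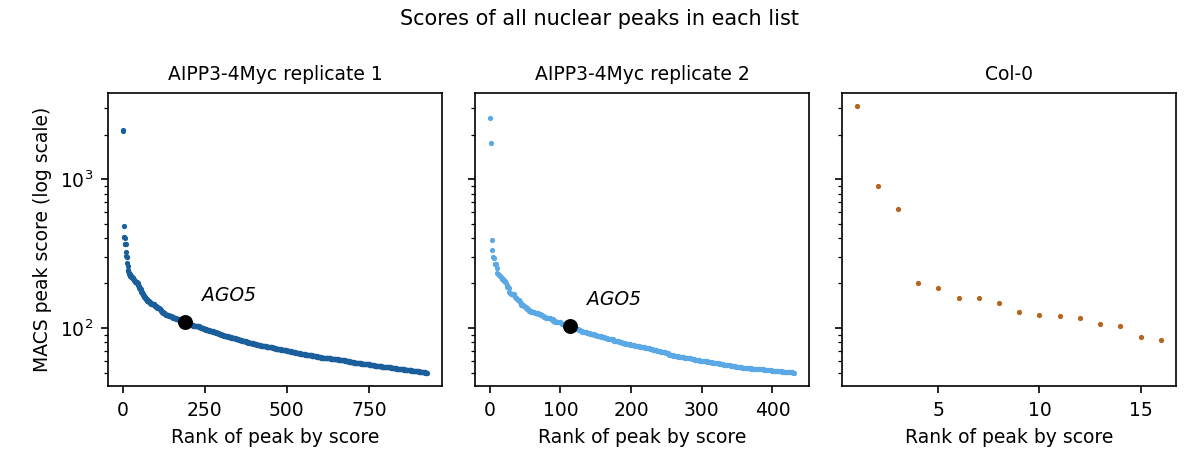
Peak score on a log axis against rank within each list, for AIPP3-4Myc replicate 1, AIPP3-4Myc replicate 2 and Col-0. The marked AGO5 peak stands at rank 189 of 926 in replicate 1 and 114 of 430 in replicate 2.

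The genes beside AGO5 had no peak in any list. Distances here run from the peak to the target region of the neighbour. Upstream, the pseudogene AT2G27870 lay 1.78 kb from the replicate 1 peak and 1.89 kb from the replicate 2 peak, and AXS1, a gene of UDP-apiose and UDP-xylose synthesis, lay 2.97 kb and 3.09 kb away. HDT4, a gene of the plant HD2 class of histone deacetylases, lay further upstream, at 7.06 kb and 7.18 kb. Downstream, the target region of AT2G27900, a coiled-coil protein gene, began 4.15 kb after the replicate 1 peak and 4.12 kb after the replicate 2 peak.

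AGO2 (AT1G31280, chr1:11181504-11185396) and AGO3 (AT1G31290, chr1:11188120-11192585) stand in tandem on the plus strand, each with 3 exons. The genes are 2.72 kb apart with no gene between them, and their block spans 11.1 kb. No peak of any library lay in this block or within 15 kb of it. In AIPP3-4Myc replicate 1 the nearest peak was 39.6 kb from the AGO2 target region and 32.4 kb from that of AGO3. It was 1 peak for both genes, with a score of 50.5 and rank 914 of 926, outside the target region of any gene, and it was not found in replicate 2. In AIPP3-4Myc replicate 2 the nearest peak was 261 kb from AGO2 and 267 kb from AGO3, at AT1G30760, a berberine bridge enzyme family gene. In Col-0 it was 10.4 Mb from both. Within 100 kb the block had 1 peak in replicate 1 and 0 in replicate 2, where AGO5 had 3 and 2, its own peak included in each. In Col-0 both had 0.

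AGO8 (AT5G21030, chr5:7139817-7144272, minus strand) and AGO9 (AT5G21150, chr5:7192239-7198381, plus strand) are turned away from each other, with 47966 bp and 14 genes between them. The AGO8 gene model starts at its start codon, so its TSS is that codon. Between them lay 1 AIPP3-4Myc replicate 1 peak, chr5:7185542-7186983, with a score of 91.9 and rank 289 of 926. Its midpoint stood at -5.98 kb from the AGO9 TSS and -42.0 kb from the AGO8 TSS, where a minus sign means upstream. The peak touched the target regions of AT5G21125 and of AT5G21130, a late embryogenesis abundant hydroxyproline-rich glycoprotein family gene, and ended 4.26 kb before the AGO9 target region and 40.3 kb from that of AGO8. No replicate 2 peak overlapped it. In AIPP3-4Myc replicate 2 the nearest peak lay beyond AGO9, 50.1 kb from AGO9 and 103 kb from AGO8, at PAA2, a copper-transporting ATPase of the chloroplast, and AT5G21940. That peak had a score of 187, ranked 27 of 430 and was also found in replicate 1. Within 100 kb the AGO8/AGO9 block, which spans 58.6 kb, had 4 peaks in replicate 1, 1 in replicate 2 and 0 in Col-0. AGO5, a shorter locus, had 3 in replicate 1 and 2 in replicate 2, its own peak included in each. No difference in surrounding peaks is read from these counts. In Col-0 the nearest peak was 9.20 Mb from AGO9 and 9.25 Mb from AGO8.

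**Figure D4:**
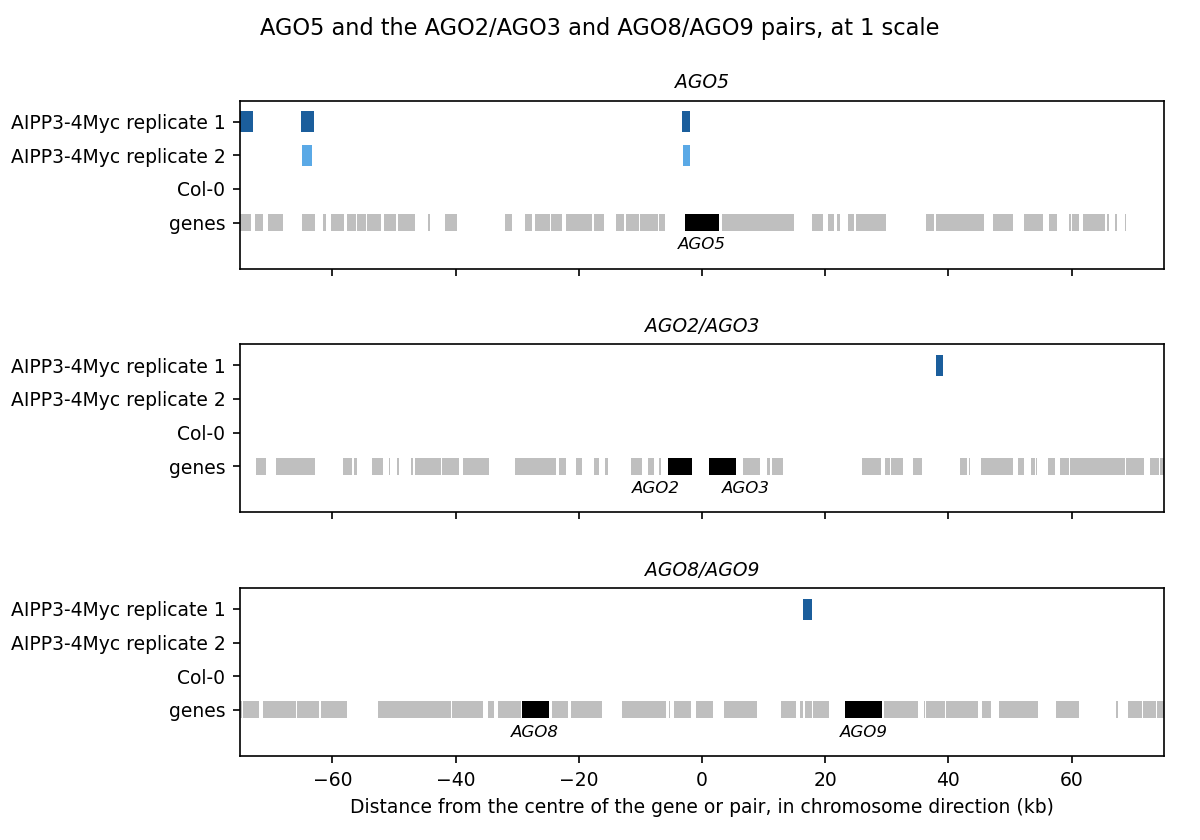
AGO5 and the AGO2/AGO3 and AGO8/AGO9 pairs at 1 scale, in kb from the centre of the gene or pair. Bars are peaks of AIPP3-4Myc replicate 1, AIPP3-4Myc replicate 2 and Col-0, black boxes are ARGONAUTE genes and grey boxes other genes. Bars from both AIPP3-4Myc replicates meet AGO5 and no bar meets a pair member, and a replicate 1 bar lies between AGO8 and AGO9.

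AGO5 thus differed from both pairs in the presence of a peak and in its repeat in the other AIPP3-4Myc replicate, and this difference was not tested. The target regions were also searched for near-identical copies, on which reads cannot be placed uniquely. No ARGONAUTE target region had an alignment of at least 100 bp at 90% identity elsewhere on the nuclear chromosomes. Identity was taken over each whole alignment, so a closer stretch inside a longer alignment was not counted. Whether the pairs hold such stretches was thus not tested. Shorter matches fell outside the limit of 100 bp, and AGO7 had 934 matches elsewhere, the longest 92 bp at 78.3% identity. The longest match of AGO2 was 3061 bp at 79.4% identity, in AGO3, and that of AGO8 was 4152 bp at 68.4%, in AGO9. The shared AGO5 stretch had 0 matches elsewhere at an E-value of 1e-05.

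The closest relatives of AGO5 had no peak near their starts. AGO1 (AT1G48410, chr1:17885633-17892632, minus strand) lay 104 kb from its nearest AIPP3-4Myc replicate 1 peak, which touched the target regions of AT1G48120, of PER1, a seed peroxiredoxin gene, and of DPMS3, a dolichol phosphate mannose synthase subunit gene. In AIPP3-4Myc replicate 2 its nearest peak, at DGAT3, an acyltransferase gene of oil synthesis, and CHR18, a chromatin remodelling gene, was 37.1 kb away. Neither peak was found in the other replicate, and the nearest Col-0 peak was 3.71 Mb away. AGO10 (AT5G43810, chr5:17610744-17616907, plus strand) lay 8.31 kb from a replicate 1 peak at AT5G43830 and HSFA6A, a heat shock factor gene. This peak had a score of 51.4 and rank 886 of 926, its midpoint lay 15.2 kb downstream of the AGO10 TSS, and it was not found in replicate 2. The nearest AIPP3-4Myc replicate 2 peak was 193 kb from AGO10, at the F-box gene AT5G44220, and the nearest Col-0 peak was 1.21 Mb away.

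AGO4, AGO6 and AGO7 complete the family. AGO4 (AT2G27040, chr2:11536502-11542391, minus strand) lay 22.6 kb from the nearest peak in each AIPP3-4Myc replicate and 4.53 Mb from the nearest in Col-0. The replicates shared this peak, at AT2G27080, a late embryogenesis abundant hydroxyproline-rich glycoprotein family gene, and AT2G27090. It scored 217 in replicate 1 (rank 31 of 926) and 175 in replicate 2 (rank 28 of 430). AGO6 (AT2G32940, chr2:13971916-13977521, minus strand) lay 53.3 kb from a replicate 1 peak at AP4.3A, a protein kinase gene, and 310 kb from a replicate 2 peak at AT2G32150 and AT2G32160. AGO7 (AT1G69440, chr1:26101407-26105328, minus strand) lay 35.4 kb from a replicate 1 peak at EXPA1, an expansin gene, and 110 kb from a replicate 2 peak at TCP15, a transcription factor gene. The nearest Col-0 peak was 6.96 Mb from AGO6 and 3.20 Mb from AGO7.

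The distances of the family were next set beside those of all protein-coding genes. The median distance from the target region to the nearest peak over the 10 genes was 33.9 kb in AIPP3-4Myc replicate 1, 107 kb in replicate 2 and 5910 kb in Col-0. Protein-coding genes had medians of 39.4 kb, 88.4 kb and 4600 kb in the same lists. The number of ARGONAUTE genes closer than the median gene was 6 in replicate 1, 4 in replicate 2 and 4 in Col-0. Of the ARGONAUTE genes without a peak, the closest to one were AGO9 at 4.26 kb in replicate 1 and AGO4 at 22.6 kb in replicate 2. In replicate 1, 11.8% of protein-coding genes were closer to a peak than AGO9 and 17.8% were closer than AGO10. In replicate 2 these shares were 33.9% for AGO9 and 76.8% for AGO10. AGO9 was thus still closer than the median gene, by another peak, and AGO10 was not. The 9 genes without a peak had 7 distinct nearest peaks in each AIPP3-4Myc replicate, because the pair members share theirs. Of these, 1 of 7 replicate 1 peaks was found in replicate 2, and 6 of 7 replicate 2 peaks were found in replicate 1, the longer list.

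**Figure D5:**
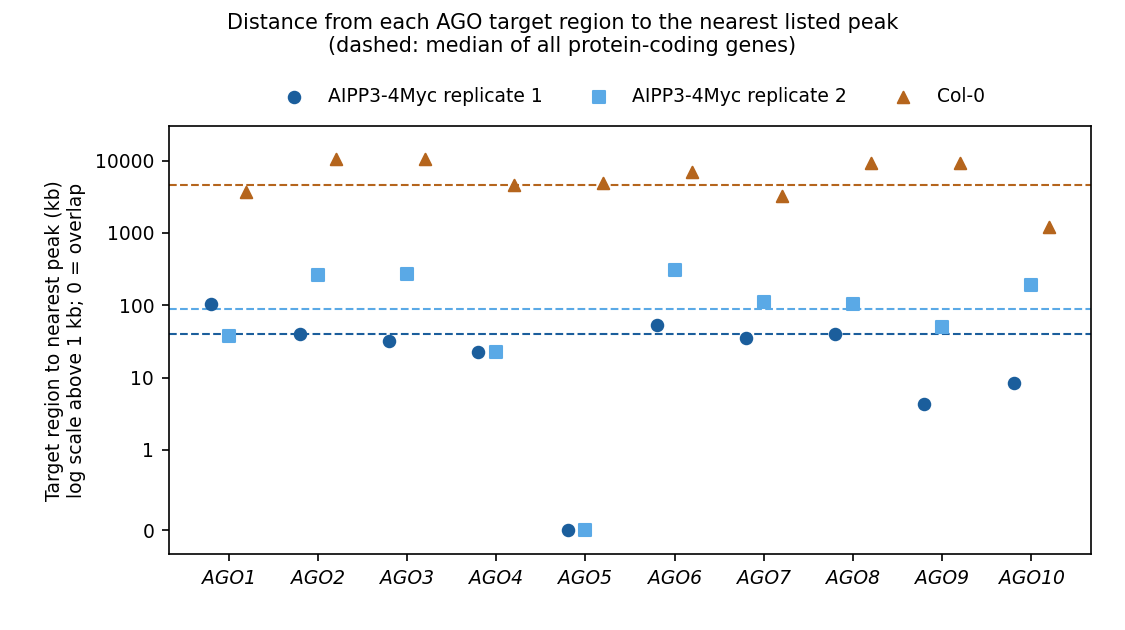
Distance from the target region of each ARGONAUTE gene to the nearest peak, in kb on a log axis above 1 kb, in AIPP3-4Myc replicate 1, AIPP3-4Myc replicate 2 and Col-0, with dashed lines at the medians of protein-coding genes. AGO5 stands at 0 in both AIPP3-4Myc replicates. The other genes lie between 4.26 and 104 kb in replicate 1, between 22.6 and 310 kb in replicate 2, and all 10 lie at least 1210 kb away in Col-0.

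Genes that act with ARGONAUTE proteins were looked up for comparison. The list held 33 RNA silencing genes: 8 of small RNA processing by Dicer-like proteins, 4 of small RNA stability and export, 1 of ARGONAUTE loading, 9 of double-stranded RNA synthesis and 11 of RNA-directed DNA methylation. In each of the 2 AIPP3-4Myc libraries and in Col-0, 0 of the 33 had a peak, beside the shares of protein-coding genes with a peak given above. Their median distance to the nearest peak was 32.9 kb in replicate 1 and 111 kb in replicate 2, against 39.4 kb and 88.4 kb for all protein-coding genes. A few are named here after their values were seen. RDR1, an RNA-dependent RNA polymerase gene of antiviral defence, had a replicate 1 peak 56 bp past its TTS, but its nearest replicate 2 peak was 239 kb away. DCL2, a Dicer-like gene of antiviral defence, had its nearest peak at 1.41 kb in replicate 1 and 256 kb in replicate 2. SE, a zinc finger partner of DCL1 in microRNA processing, lay 3.38 kb from its nearest peak in replicate 1 and 3.54 kb in replicate 2, and this was the peak nearest AGO4. DMS3, a gene of RNA polymerase V recruitment, lay 4.76 kb from a peak in replicate 1 and 4.98 kb in replicate 2. A gene without a listed peak did not pass the threshold of MACS in that library, which does not show that AIPP3 is absent from it.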

How the data were processed

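ChIP-seq of 2 AIPP3-4Myc libraries and 1 Col-0 library was used. The authors, as their methods state, mapped reads to TAIR10 with Bowtie2 (version 2.2.8) and called peaks with MACS (version 1.4) at default parameters. There was 1 deposited list per library, and the lists were not pooled here. Whether the authors pooled replicates for their own gene set was not given. The deposited score is the MACS peak score, which grows with depth. Read numbers and the control given to MACS were not given in the sources used here, so scores were ranked within a list and not compared between lists.

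Peaks were set against TAIR10.1 gene models, whose nuclear coordinates are those of TAIR10, with 1-based positions, Python 3.11.15, numpy 2.4.6 and pandas 2.3.3. Target regions began 1 kb before the TSS and ended at the TTS, with an overlap of at least 1 bp. A distance is the difference between the facing edges. Sequence matches used BLAST+ 2.17.0, and translated identities used Biopython 1.88. In a check of the code, 1 simulated peak was set inside or outside the target region of each gene. Overlap and distance came out as set for 200 of 200 genes, which checks the code and not the detection of peaks.

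The members and lists were chosen with earlier results of these data known. Named genes were the 10 members, genes at their nearest peaks, neighbours of AGO5 and the pairs, and silencing genes with a peak, of which there were 0. The 4 silencing genes in the text were chosen after their values were seen. Organelle peaks were left out. The sequence around the AGO9 start is not reported here. No test was made, and alternatives are given under the dependence on processing.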

Additional observations from a re-analysis of the deposited data

How the results depend on the processing

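The numbers of ARGONAUTE genes and of RNA silencing genes with a peak were recomputed under 6 other settings: gene body only, 3 kb upstream of the TSS to 1 kb downstream of the TTS, an overlap of at least 200 bp, a score of at least 100, the peak midpoint inside the target region, and the nearest TSS only. Together with leaving out each replicate and another definition of the peak centre, this gave 36 values over both lists, of which 36 kept the result and 0 changed it. Several of these values could not have changed. Both AGO5 peaks lay wholly inside the target region, so the other centre was the same. Col-0 peaks were at least 1210 kb from every ARGONAUTE gene, and stricter settings cannot raise a count of 0. Leaving out a replicate repeats the count of the other list. AGO5 was the gene in every setting in both AIPP3-4Myc replicates, and Col-0 had 0. Leaving out each AIPP3-4Myc replicate gave 1 to 1 ARGONAUTE genes and 0 to 0 RNA silencing genes. With the wider region RDR1 gained a peak in replicate 1 but not in replicate 2. That change is outside the 36 values, because under these settings silencing genes were counted only with a peak in both replicates. No paired analysis was possible because Col-0 had 1 library and no result came from a test. Depth is unknown, so how far a gene without a peak lay below the threshold is not known.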

Other observations

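The next AIPP3-4Myc peak upstream of AGO5 was also found in both replicates. It touched the target region of CYP94C1, a gene of jasmonate turnover chosen here after its values were seen, and lay 59.8 kb from the AGO5 peak in replicate 1 (score 114) and 60.2 kb in replicate 2 (score 111). The next peak downstream was 114 kb away in replicate 1, at AT2G28120 and AT2G28130 (score 50.6), and 949 kb away in replicate 2, at MAPKKK14 (score 52.3). These downstream peaks were not the same locus, and Col-0 had no peak within 100 kb of AGO5.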
